A study of Homo sapiens with 5 samples.

Results

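The zinc finger genes of human chromosome 19 were examined for binding of 3 transcription factors in a metastatic breast cancer cell line. Members were the protein-coding genes on that chromosome whose symbol is ZNF followed by a number, taken from the GENCODE annotation lifted to hg19, the build of the deposited peak lists. This gave 246 genes of 20098 protein-coding genes on chromosomes 1 to 22 and X, and the 1234 other protein-coding genes of chromosome 19 served for comparison. The rule used symbols and position only and no binding value, although this group of genes was chosen with earlier results of these data known.

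The study used LM2 cells, a derivative of the triple-negative breast cancer line MDA-MB-231 that metastasizes to the lung, grown untreated in medium with 10% FBS. Chromatin was immunoprecipitated with antibodies against E2F1 (Millipore), MYC and Fra-1 (also called FOSL1; both Santa Cruz), with an input library as control. With 1 library per factor, from 1 derivative of 1 cell line, no spread between replicates could be measured and no test was made. Between 12931227 and 23853621 tags per ChIP library remained after duplicates were removed, and MACS2 called 36933 peaks for E2F1, 4867 for MYC and 17320 for Fra-1. An EZH2 library from the same cells was not used here.

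Most members encode C2H2 zinc finger proteins, in which a tandem array of short zinc-binding fingers reads DNA. Many also carry a KRAB domain, which recruits the corepressor TRIM28 and the histone methyltransferase SETDB1, and several are known to silence retroelements. The genes arose by tandem duplication and lie in large clusters on chromosome 19, so that neighbours resemble each other in promoter and coding sequence. E2F1 is an activator of cell cycle and DNA replication genes, MYC binds DNA with MAX at the E-box CACGTG and drives growth genes, and Fra-1 is a subunit of AP-1, which reads TGACTCA or its complement TGAGTCA, often at enhancers.

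E2F1 occupied the promoters of most members, whereas MYC was found at a minority and Fra-1 at very few. A promoter peak was one that overlapped the window from 2 kb before to 2.5 kb after any annotated transcription start site (TSS) of the gene. E2F1 had such a peak at 214 of the 246 members, or 87.0% (95% Wilson interval 82.2 to 90.6), against a background of 61.3% among all protein-coding genes. Among the other genes of chromosome 19 the E2F1 share was 62.9% (60.2 to 65.5), and the difference was 24.1 percentage points (Newcombe interval 18.6 to 28.7). The members therefore exceeded both reference groups for E2F1.

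MYC and Fra-1 went the other way. MYC had a promoter peak at 38 members, or 15.4% (11.5 to 20.5), with a background of 17.8% over all protein-coding genes and 27.1% (24.7 to 29.7) in the other genes of chromosome 19. The difference from the latter was -11.7 points (-16.4 to -6.11), while the share was close to that of the genome as a whole. Fra-1 had a promoter peak at 5 members, 2.03% (0.871 to 4.67), against a background of 13.2% and against 14.4% (12.6 to 16.5) of the other chromosome 19 genes. That difference was -12.4 points (-14.8 to -9.17). All of these intervals describe counting error over genes, and they are too narrow to the extent that duplicated neighbours and shared peaks are not independent.

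**Figure D1:**
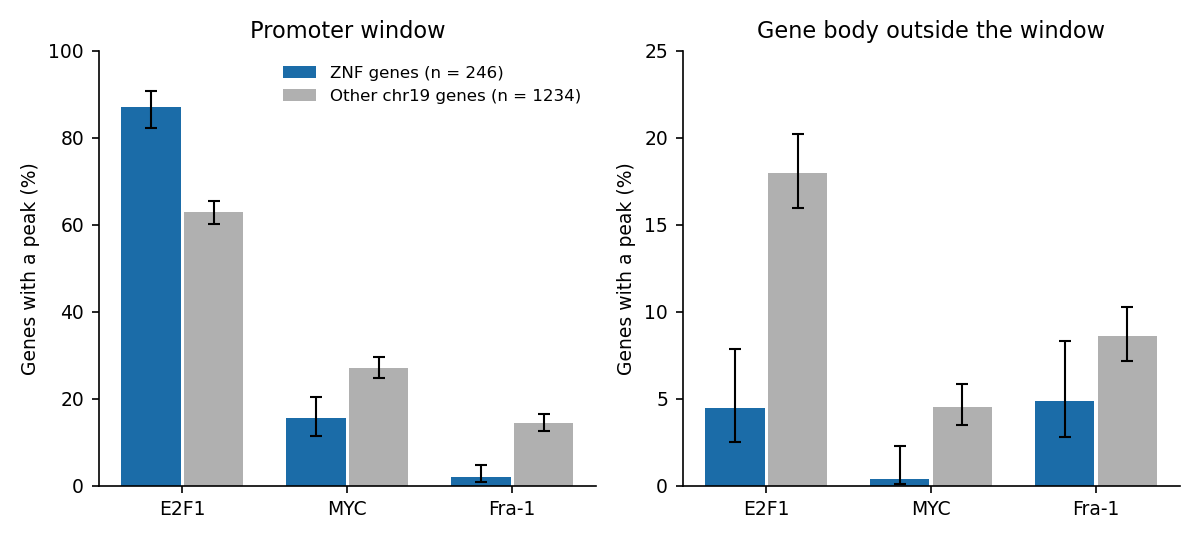
Percent of genes with a peak of each factor (y axis) in the promoter window (left) and in the gene body outside that window (right), for 246 ZNF genes and 1234 other protein-coding genes of chromosome 19. Bars are shares and whiskers 95% Wilson intervals; the E2F1 promoter share was 87.0% against 62.9%, while every other pair had the ZNF genes lower, with overlapping whiskers only for Fra-1 in gene bodies.

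Members with a MYC or Fra-1 promoter peak also had E2F1, as was usual in other genes. All 38 members with a MYC peak and all 5 with a Fra-1 peak also had an E2F1 peak, as did 335 of 335 MYC genes and 171 of 178 Fra-1 genes among the other genes of the chromosome. Over all protein-coding genes 99.7% of MYC genes and 93.2% of Fra-1 genes had E2F1. MYC and Fra-1 were not nested in each other, since 4 of the 5 members with Fra-1 had no MYC peak. E2F1 together with MYC was found at 38 members against a background of 17.8%. E2F1 without either of the others was the most frequent state, at 172 members (69.9%, 63.9 to 75.3) against 368 of the other genes (29.8%, 27.3 to 32.4). The background of this state over all protein-coding genes was 35.8%. Promoter peaks of all 3 factors were seen at 1 member, ZNF274, where the background was 4.67%, and at 98 (7.94%) of the other chromosome 19 genes. No factor had a promoter peak at 32 members (13.0%), against 36.5% of the other chromosome 19 genes and a background of 37.8%. Of these members 30 (12.2% of all members) had no peak in the gene body either, against 31.6% of the other genes and a background of 31.8%.

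Split by CpG class, the E2F1 share of members exceeded that of other genes at promoters poor in CpG dinucleotides and was close to it at CpG-rich ones. The CpG ratio was computed as observed over expected CG dinucleotides in the bases from 250 before to 50 after the canonical TSS, and 0.6, the customary level for CpG islands, divided the genes. The division was chosen after seeing the data. Of the 54 members below 0.6, E2F1 had a promoter peak at 47 (87.0%, 75.6 to 93.6), compared with 145 of 486 other genes (29.8%, 25.9 to 34.0), a difference of 57.2 points (45 to 64.8). At or above 0.6 the shares were 167 of 192 members (87.0%, 81.5 to 91.0) and 631 of 748 other genes (84.4%, 81.6 to 86.8), and the difference of 2.62 points had an interval that included 0 (-3.39 to 7.53). Among members the share was hence alike in both classes, while among the other genes it differed by class. Members were also more often at or above 0.6, at 78.0% against 60.6% of the other genes. The difference over all genes therefore mixes the classes in unequal parts. Within a class the ratio was not matched. Its lower quartile was 0.368 over all other genes and 0.616 over all members, so very low ratios were more frequent among the other genes. The ratio was also taken at the canonical TSS, whereas a peak at any TSS counted. The part of either in the difference below 0.6 was not tested.

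Moving the division to a ratio of 0.5 or 0.75 gave differences of 57.2 and 44 points in the lower class and 5.51 and 1.90 points in the upper class. The CpG-poor members came mainly from the ZNF101 to ZNF254 cluster described below, which held 28 of the 54. With that cluster left out, E2F1 was at 23 of 26 CpG-poor members (88.5%, 71.0 to 96.0).

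MYC was less frequent in members than in other genes of the CpG-rich class, and Fra-1 was less frequent in both classes. MYC was present at 36 of 192 CpG-rich members (18.8%, 13.9 to 24.9) and at 299 of 748 other genes (39.97%, 36.5 to 43.5), a difference of -21.2 points (-27.3 to -14.2). In the CpG-poor class the MYC shares were 3.70% and 7.41%, and their difference of -3.70 points was within counting error (-7.49 to 5.35). Fra-1 was at 5 CpG-rich members (2.60%, 1.12 to 5.95) against 18.3% of the other CpG-rich genes, a difference of -15.7 points (-18.998 to -11.5). It was at 0 of 54 CpG-poor members (Wilson upper limit 6.64%) against 8.44%, a difference of -8.44 points (-11.2 to -1.45).

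**Figure D2:**
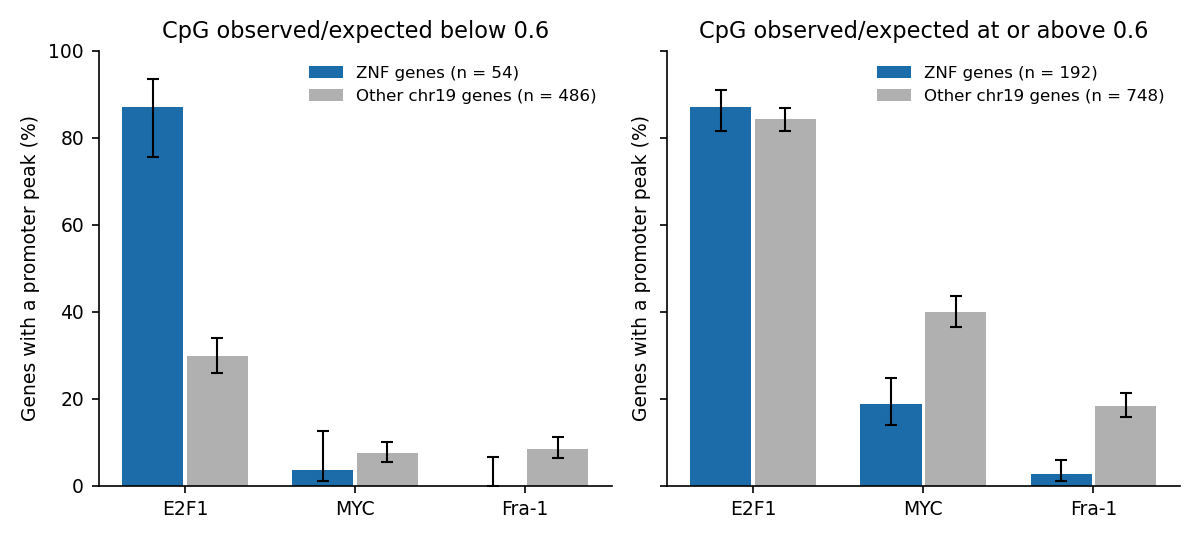
Percent of genes with a promoter peak of E2F1, MYC and Fra-1 (y axis), split by the CpG observed/expected ratio of the canonical promoter at 0.6, for ZNF genes and other genes of chromosome 19. Whiskers are 95% Wilson intervals; below 0.6 the E2F1 bars stand at 87.0% and 29.8%, and at or above 0.6 at 87.0% and 84.4%.

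The E2F1 difference was within counting error among the very strongest peaks of the genome and exceeded it once peaks of middle rank were added. When only the 5000 E2F1 peaks with the highest -log10 q were kept, 80 members (32.5%, 27 to 38.6) and 366 other genes (29.7%, 27.2 to 32.3) had one in the promoter, a difference of 2.86 points (-3.27 to 9.43). With 10000 peaks the shares were 66.3% and 45.3%, and with 20000 they were 85.4% and 57.3%, after which the member share hardly rose. From 25000 peaks on, the same count of 214 members was reached as with the whole list.

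**Figure D3:**
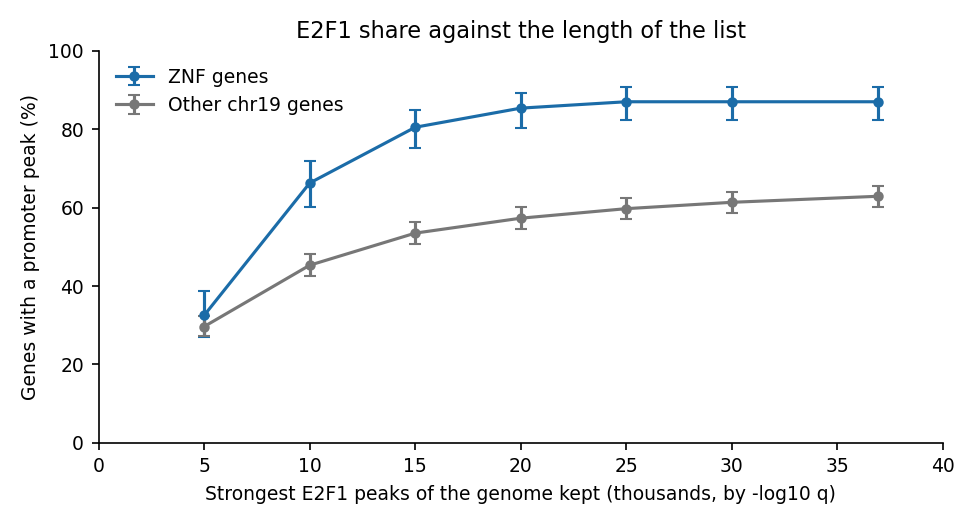
Percent of genes with an E2F1 promoter peak (y axis) against the number of strongest E2F1 peaks kept from the whole genome (x axis, in units of 1000, ranked by -log10 q). Points are shares with 95% Wilson intervals; ZNF genes and other chromosome 19 genes are at 32.5% and 29.7% with 5000 peaks and at 85.4% and 57.3% with 20000.

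Fold enrichment is the ratio of the ChIP signal at the summit to the local background that MACS2 estimates. For E2F1 its median was lower at members than at other chromosome 19 genes with a peak. The strongest E2F1 promoter peak of a member had a median fold enrichment of 20.9 (order-statistic interval 18.5 to 22.6), with values between 7.09 and 62.6, while the other chromosome 19 genes with a peak had a median of 24.0 (22.8 to 25.2). A fold enrichment between 10 and 20 was found at 83 members (33.7% of all members, against 16.9% of the other genes), and one of 40 or more at 14 members (5.69% against 9.97%). From 20 to 30 the shares were 25.6% and 16.1%, and from 30 to 40 they were 13.8% and 11.5%. These are shares of all genes, bound or not, and so also carry the difference in E2F1 promoter share.

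The highest E2F1 values were at ZNF274 (62.6), ZNF543 (51.3), ZNF160 (49.03), ZNF611 (49.01), ZNF324 (48.3), ZNF700 (47.4), ZNF878 (47.3) and ZNF473 (46.7), the last encoding a factor of histone pre-mRNA processing. These 8 genes lie in 4 of the clusters described below. ZNF91 and ZNF93, which are known to repress retrotransposons, had 42.1 and 25.5. The E2F1 fold enrichment was 27.3 at ZNF649, 15.7 at ZNF224, 14.5 at ZNF675 and 14.4 at ZNF350, whose products are described as transcriptional repressors or, for ZNF675, as an inhibitor of TRAF6 signalling. In the promoter window all of these genes had E2F1 with no MYC or Fra-1 peak, other than ZNF274, ZNF543, ZNF324 and ZNF473, which also had MYC, and ZNF611, which also had Fra-1.

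E2F1 summits sat close to the start sites. The summit of the strongest promoter peak lay a median of 29 bp (22 to 37) from the nearest TSS in members and 118 bp (94 to 139) in other genes. It was within 100 bp in 175 of 214 members (81.8%, 76.1 to 86.4) and in 369 of 776 other genes (47.6%, 44.1 to 51.1), and over 500 bp away in 4 members (1.87%) and 167 other genes (21.5%). The number of annotated start sites had a median of 5 per gene in both groups, but its quartiles were 3 and 7 in members and 2 and 9 in other genes. The part of this spread in the comparisons of summits and peak numbers was not tested. A promoter window with more than 1 E2F1 peak was seen in 59 of the 214 members (27.6%, 22.02 to 33.9) and 470 of the 776 other genes (60.6%, 57.1 to 63.9). E2F1 at members was thus mostly a single peak on the TSS.

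**Figure D4:**
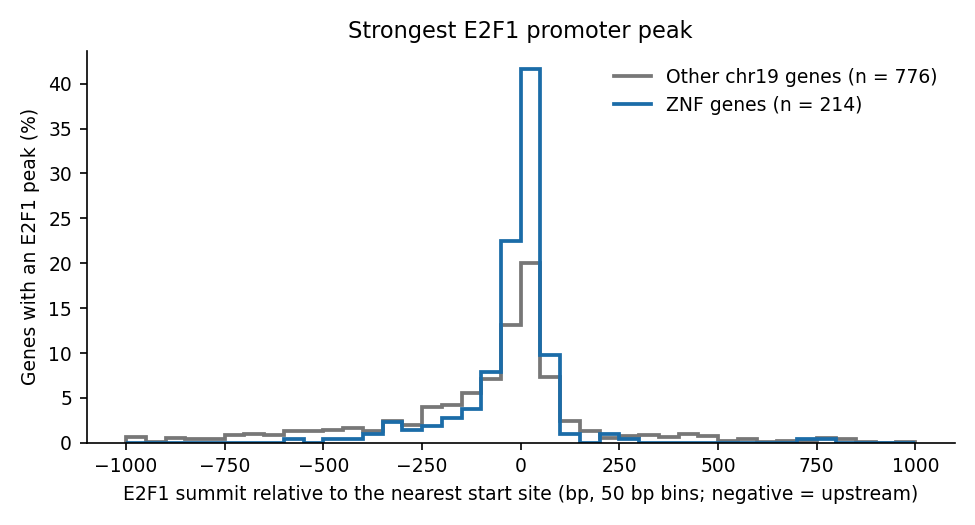
Position of the strongest E2F1 summit relative to the nearest start site (x axis, bp, bins of 50) against the percent of genes with a peak (y axis), for 214 ZNF genes and 776 other genes of chromosome 19. Summits beyond 1000 bp on either side are not drawn; the ZNF genes crowd around 0, with 81.8% of summits within 100 bp compared with 47.6%.

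Neighbouring genes often shared a peak. The 214 strongest E2F1 peaks were 206 distinct intervals, and 50 of the 214 members had theirs inside the promoter window of another protein-coding gene as well. In 10 pairs both genes were members, among them ZNF146 with ZNF565, ZNF569 with ZNF570, ZNF568 with ZNF829 and ZNF580 with ZNF581. At such genes the peak cannot be assigned to 1 of the start sites.

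Ordered along the chromosome and divided at gaps of over 1 Mb, the members fell into 16 clusters, of which 7 held 10 or more genes. E2F1 shares in these 7 ran from 73.0% (27 of 37) in the ZNF101 to ZNF254 cluster at chr19:19779605-24312770 to 100% (25 of 25, lower limit 86.7%) in the ZNF653 to ZNF791 cluster at chr19:11594242-12750912. The ZNF175 to ZNF331 cluster at chr19:52074536-54083523 had 36 of 39 members (92.3%, 79.7 to 97.3), whereas 4 of the 15 other genes lying among them had an E2F1 peak (26.7%, 10.9 to 51.95). Over all 7 large clusters E2F1 was at 87.1% of members (82.1 to 90.9) and at 101 of the 181 interspersed other genes (55.8%, 48.5 to 62.8). Single clusters differed in this. In the ZNF565 to ZNF573 cluster all 6 other genes had an E2F1 peak beside 24 of 26 members, and in the ZNF653 to ZNF791 cluster 10 of 14 other genes did, while in the terminal ZNF628 to ZNF446 cluster it was 25 of 51 other genes (49.02%) and 51 of 59 members (86.4%).

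MYC was unevenly spread over the clusters. The terminal ZNF628 to ZNF446 cluster at chr19:55987984-58992597 held 23 of the 38 members with MYC, which was 39.0% (27.6 to 51.7) of its 59 genes, compared with 15 of the 187 members elsewhere (8.02%, 4.92 to 12.8). In contrast, MYC had no promoter peak at any of the 86 members of the ZNF653 to ZNF791, ZNF101 to ZNF254 and ZNF575 to ZNF296 clusters. These clusters and the terminal one were singled out after their MYC counts were seen, so the counts are a description only. The interspersed other genes of the large clusters had MYC at 15.5% (10.9 to 21.4), and the members beside them at 15.6% (11.4 to 20.9), compared with 29.2% (26.5 to 31.97) of the other chromosome 19 genes outside these clusters. These pooled shares hide opposite orders within clusters. MYC was at 39.0% of members and 15.7% (8.17 to 28.01) of other genes in the terminal cluster, but at 0 of 24 members and 5 of 32 other genes in the ZNF575 to ZNF296 cluster.

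**Figure D5:**
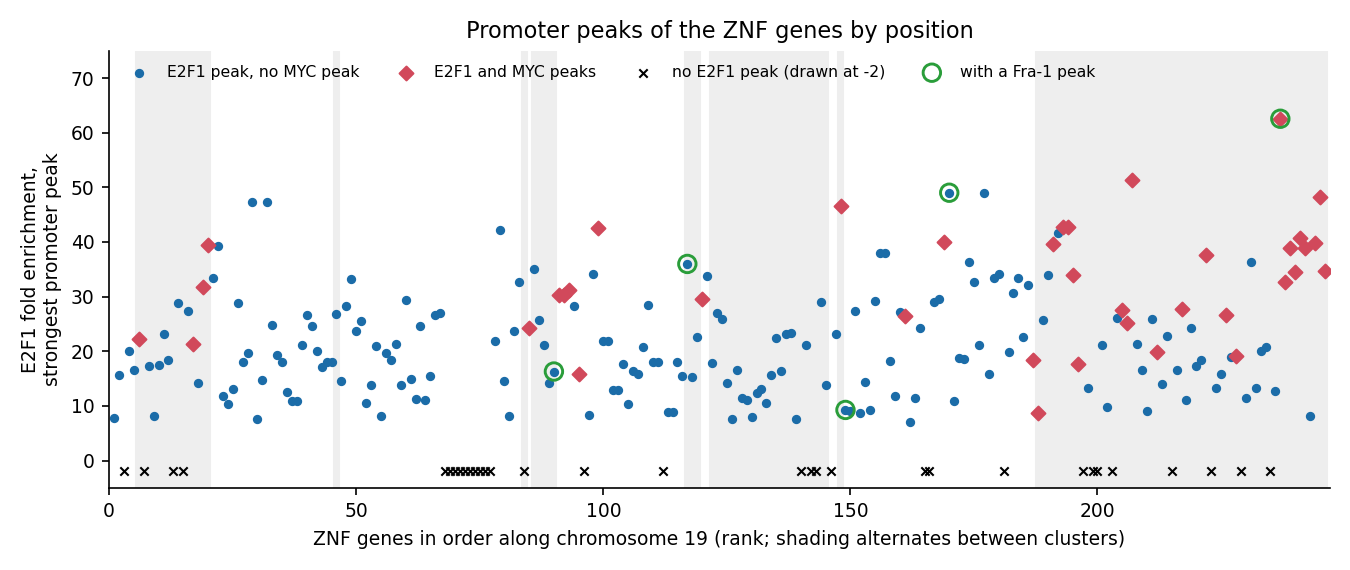
E2F1 fold enrichment of the strongest promoter peak (y axis) for the 246 ZNF genes in their order along chromosome 19 (x axis, rank), with genes that also have MYC as red diamonds, genes with Fra-1 ringed in green and genes without an E2F1 peak as crosses at -2. Shading alternates between the 16 clusters; the crosses include a row of 10 consecutive genes, and 23 of the 38 diamonds fall in the last cluster.

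The members with MYC also had stronger E2F1 peaks. Their median E2F1 fold enrichment was 32.2 (27.5 to 38.9, n = 38) compared with 18.4 (17.2 to 21.0, n = 176) in members with E2F1 alone or with Fra-1. The other genes of chromosome 19 showed the same split, 32.6 (30.7 to 34.8) against 17.3 (16.3 to 18.8). The median CpG ratio was 0.864 (0.797 to 0.916) at members with MYC and 0.768 (0.746 to 0.797) over all members, which include them. These intervals meet at 0.797, and the ratio of members without MYC was not computed apart.

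The height of MYC peaks at members was within counting error of that at other genes. Fold enrichment at the 38 members ran from 4.09 to 17.6 with a median of 7.67 (6.59 to 8.31), compared with 7.32 (7.16 to 7.65) in the other chromosome 19 genes with MYC, and the pileup of fragments at the summit had a median of 10 (9 to 13) against 12 (11 to 12). The highest were ZNF460 (17.6), ZNF787 (13.6), ZNF628 (10.9), ZNF507 (10.8), ZNF529 (9.93), ZNF749 (9.40), ZNF444 (9.13) and ZNF584 (8.54). ZNF628 was the 1 member at which MYC fold enrichment exceeded that of E2F1 (8.78), although the scales of libraries of different depth are only roughly comparable.

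The E-box CACGTG was present within 50 bp of 6 of the 36 distinct MYC summits at members (16.7%, 7.87 to 31.9), close to the 17.2% (13.1 to 22.3) at the 256 summits of other chromosome 19 genes. In windows of the same length around the start sites of all 1480 chromosome 19 genes the share was 3.24%. The sequences are shown because they are the MYC summits of members that hold the canonical site. They are 30 bases of hg19 on the strand of the named gene with the E-box in capitals, and ZNF146 and ZNF580 share their peaks with ZNF565 and ZNF581. All 30 bases are exonic in the annotation at ZNF146, ZNF529, ZNF628 and ZNF8, and none at ZNF331 and ZNF580.
ZNF146 (chr19:36706066-36706095, plus strand): ggcccctgggtcCACGTGgcgcgaaagtag
ZNF529 (chr19:37064078-37064107, minus strand): gcgaggtcggtcCACGTGgagccgggagcc
ZNF331 (chr19:54041056-54041085, plus strand): ggggtgcacgcaCACGTGtcagtgtgtccg
ZNF628 (chr19:55987577-55987606, plus strand): gaaaatcctgagCACGTGgctctaccgagg
ZNF580 (chr19:56155416-56155445, plus strand): gagttgttcagaCACGTGgctggagagagg
ZNF8 (chr19:58790615-58790644, plus strand): taatgcccttgaCACGTGgggaaactcaga

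The E2F letters TTTCCCGC, TTTCGCGC, TTTGCCGC and TTTGGCGC, searched on both strands, lay within 50 bp of 8 of the 206 distinct E2F1 summits at members (3.88%, 1.98 to 7.47). The share at the 637 E2F1 summits of other genes was 5.02% (3.58 to 7.01), and windows of the same length around canonical start sites held them in 3.66% of members and 2.36% of all genes of the chromosome. Most E2F1 summits in either group were therefore without these letters. Of the few that had them, 3 are shown in 30 bases with the match in capitals, and in ZNF146 the match begins beside the E-box printed above.
ZNF653 (chr19:11616699-11616728, minus strand): cttggtctcctTTTGGCGCcctggggcagc
ZNF101 (chr19:19779620-19779649, plus strand): aagcggtctcaTTTCCCGCcggccccccat
ZNF146 (chr19:36706073-36706102, plus strand): gggtccacgtgGCGCGAAAgtaggaggtgg

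Other letters recurred at the E2F1 summits of members. The most frequent of all 8-base words there was CCCGGAAG, counted with its complement CTTCCGGG, at 28 of 206 summits (13.6%, 9.57 to 18.9) against 21 of 637 (3.30%, 2.17 to 4.99) in other genes. It holds the GGAA core that ETS family factors read, as does the overlapping word CCGGAAGT at 11.7% and 4.40%. Both words were picked for their frequency at these summits, so the shares are a description. Within 50 bp of the canonical start site, CCCGGAAG was found in 18.7% of members (14.3 to 24.0), 2.84% of other genes (2.05 to 3.92) and 5.47% of all genes of the chromosome.

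In the ZNF175 to ZNF331 cluster 16 of 35 distinct E2F1 summits held the word. Within 250 bp of any start site it was present in 22 of the 36 members of that cluster with an E2F1 peak and in all 3 without one, compared with 12.2% of other chromosome 19 genes. By that wider window it was also near the start sites of 28 of the 37 members of the ZNF101 to ZNF254 cluster, 20 of 27 bound and 8 of 10 unbound. The letters thus did not separate bound from unbound genes. The 30 bases around the word, on the gene's strand and with the word in capitals, are printed for 5 bound members and then for the 3 unbound ones, ZNF534, ZNF578 and ZNF677.
ZNF616 (chr19:52643170-52643199, minus strand): tttccgtcactCCCGGAAGcagattgcgcc
ZNF480 (chr19:52800424-52800453, plus strand): tttcccacaaaCCCGGAAGcggatcgcgtg
ZNF611 (chr19:53238276-53238305, minus strand): attaacgcaaaCCCGGAAGcggatcgggtg
ZNF160 (chr19:53606654-53606683, minus strand): ttgcccacagaCCCGGAAGtggatcgtgcg
ZNF813 (chr19:53970991-53971020, plus strand): attcgcgaaaaCCCGGAAGcggatcgcgtg
ZNF534 (chr19:52932393-52932422, plus strand): tttcctgcagaCCCGGAAGtcgagatcatg
ZNF578 (chr19:52956808-52956837, plus strand): tttcctgaagaCCCGGAAGccgatcgcgtg
ZNF677 (chr19:53758106-53758135, minus strand): gttcctgccgaCCCGGAAGcggatctcgcg
Over all pairs of the 25 members of the cluster that hold the word, the median identity of the 22 bases around it was 63.6%, with pairs from 22.7% to 100%.

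The ZNF101 to ZNF254 cluster stood out in 2 ways. Its members were the poorest in CpG, with a median ratio of 0.457 for 37 genes, while the medians of the other 6 large clusters were between 0.605 and 0.848. E2F1 nevertheless had peaks at 27 of them, with a median fold enrichment of 21.0 and a range from 8.08 at ZNF737 to 42.1 at ZNF91. The 10 members without a peak were consecutive, from ZNF208 to ZNF730 at chr19:22115760-23330023, and this 1.21 Mb held no peak of any of the 3 factors and no other protein-coding gene.

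These 10 genes, ZNF208, ZNF257, ZNF676, ZNF729, ZNF98, ZNF492, ZNF99, ZNF723, ZNF728 and ZNF730, lay in the third longest peak-free stretch of the chromosome, chr19:22035143-23432710. The longer ones were a stretch over the centromere, of which 77.2% is unsequenced, and its neighbour, and neither contained a start site of a protein-coding gene. The next E2F1 summit was between 133294 and 615995 bp from the canonical start sites of the 10 genes. No other run of unbound members had more than 2 genes.

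Most of the unbound genes shared an 8-base word with most of their bound neighbours, and a larger part of them was at or above a CpG ratio of 0.6. The median CpG ratio was 0.612 (0.414 to 0.627) in the 10 unbound genes and 0.448 (0.415 to 0.516) in the 27 bound ones, with overlapping intervals. At or above 0.6 were 6 of 10 unbound and 3 of 27 bound genes. The 8-base word ACCTGCAG, counted with its complement CTGCAGGT, was at 12 of 27 E2F1 summits of the cluster, tied with AGGACACA as the most frequent, and lay within 250 bp of a start site in 17 of 27 bound and 7 of 10 unbound members, compared with 17.9% of other chromosome 19 genes. Its surroundings differed among members, and those of ZNF714 (bound) and ZNF257 (unbound) were unlike the ones printed. The printed sites, which resemble each other, are of 3 bound and then 3 unbound members, ZNF208, ZNF98 and ZNF728.
ZNF93 (chr19:20011830-20011859, plus strand): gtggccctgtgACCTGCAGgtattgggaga
ZNF431 (chr19:21324918-21324947, plus strand): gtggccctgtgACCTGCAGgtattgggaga
ZNF91 (chr19:23578168-23578197, minus strand): gtggccctgtgACCTGCAGgtattggagag
ZNF208 (chr19:22193636-22193665, minus strand): gtggccctatgACCTGCAGgtattgggaga
ZNF98 (chr19:22605038-22605067, minus strand): gtggccctgtgACCTGCAGgtattgggaat
ZNF728 (chr19:23185871-23185900, minus strand): atggccctgtgACCTGCAGgtattgggaga
Over all pairs of the 24 members with the word the median identity of the 22 bases around it was 43.2%, with each sequence turned so that the word read ACCTGCAG. The word overlaps its own complement at the printed sites. Some alike members were therefore compared on opposite strands, and the value can understate their likeness.

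Because the reads were kept only where they aligned once, the share of 45-base words that occur once in the genome was measured within 500 bp of each canonical TSS. It was between 74.9% and 93.6% in the 10 unbound genes, with a median of 89.1% (76.2 to 93.4), and had a median of 98.3% (96.97 to 99.6) in the bound members of the same cluster. Most 45-base words in these promoters are thus unique, and the part of the lower share in the result was not tested. The peak lists hold no read depth outside peaks, and the masking of the genome used for alignment was not measured here.

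The other 22 unbound members were scattered over 7 clusters and 1 isolated gene. Their CpG ratio was not low, with a median of 0.801 (0.634 to 0.985), and their promoters had a median of 100% unique words. The nearest E2F1 summit was at least 6492 bp from the canonical TSS and 38148.5 bp at the median. They include ZNF382 and ZNF154, both known as genes silenced in tumours, ZNF536, a regulator of neuronal differentiation and the longest member at 488696 bp, and ZNF541, ZNF578, ZNF471, ZNF667 and ZNF135. The longest members without a peak of any kind in promoter or body were ZNF98, ZNF208, ZNF730, ZNF578 and ZNF541.

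Gene bodies of members were nearly free of peaks. Outside the gene's own promoter windows E2F1 had a peak in the body of 11 members (4.47%, 2.51 to 7.83), where the background was 17.8% of all protein-coding genes, compared with 222 of the other chromosome 19 genes (18.0%, 15.9 to 20.2). MYC had one in 1 member (0.407%), ZNF586, against a background of 2.44% and 4.54% of the others. Fra-1 had one in 12 members (4.88%, 2.81 to 8.33), against a background of 17.3% and 8.59% (7.15 to 10.3) of the others.

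Because bodies differ in length, peaks were also counted per Mb of body sequence. E2F1 gave 2.30 peaks per Mb in members and 21.1 in other genes, MYC 0.164 and 3.95, and Fra-1 2.13 and 7.63. Over the bodies of all protein-coding genes the densities were 6.59 for E2F1, 0.543 for MYC and 5.97 for Fra-1, so the members were below these as well, but by less than below the other chromosome 19 genes. The difference in E2F1 body share, -13.5 points (-16.5 to -9.59), and in MYC, -4.13 points (-5.48 to -2.01), exceeded counting error, and the one for Fra-1, -3.71 points, had an interval that reached 0 (-6.38 to 0.0289). Members had the longer bodies, with a median of 18073 bp against 6419 bp, and the unique share of 45-base words in bodies was alike, 89.6% and 89.5% at the median.

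Several body peaks belonged to a neighbour. Of the 14 E2F1 body peaks, 5 lay in the promoter window of another gene, such as the 2 in ZNF586, which overlapped those of ZNF552 and ZNF587B, and 1 in ZNF665 with a fold enrichment of 33.4, which is the strongest promoter peak of ZNF347. At ZNF709 an E2F1 peak of 28.9 in the body, in no other gene's window, exceeded the 20.05 of its promoter. E2F1 and Fra-1 peaks overlapped in the bodies of ZNF627, ZNF665, ZNF331 and ZNF264, with Fra-1 fold enrichments of 6.07, 9.18, 10.9 and 15.1 and E2F1 fold enrichments of 6.95, 6.16, 11.3 and 6.16. ZNF665 had a second such overlap, with 5.02 for Fra-1 and 6.21 for E2F1.

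The AP-1 letters were found within 50 bp of 9 of the 13 Fra-1 body summits (69.2%, 42.4 to 87.3), compared with 85 of 143 (59.4%, 51.2 to 67.1) in other genes. These 4 are shown because E2F1 peaks coincide with them, in 30 bases with the AP-1 match in capitals.
ZNF627 (chr19:11679232-11679261, plus strand): tctggtgcctcTGAGTCAgtgagaagagcg
ZNF665 (chr19:53686542-53686571, minus strand): gagatcagcctaTGACTCAcagaggggaga
ZNF331 (chr19:54048509-54048538, plus strand): atgtggaatttTGAGTCAaaattagatgtt
ZNF264 (chr19:57717984-57718013, plus strand): gccatagtaagTGACTCAtccgaatgtcat

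Fra-1 promoter peaks were few and varied in height. The fold enrichment was 17.4 at ZNF274, 14.1 at ZNF175, 13.9 at ZNF792, 12.3 at ZNF611 and 5.50 at ZNF546, and the median of 13.9 (5.50 to 17.4) has an interval that includes the 9.57 (8.76 to 10.4) of the 178 other genes with a Fra-1 promoter peak. At ZNF611 the summit was 2137 bp downstream of the nearest start site, and at the other 4 it was between 62 and 182 bp from one. ZNF175 was the member at which Fra-1 exceeded E2F1, whose fold enrichment there was 9.26.

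ZNF274, the member with all 3 factors and with the strongest E2F1 and Fra-1 promoter peaks, encodes a KRAB zinc finger protein known to bind the 3′ ends of other zinc finger genes and to recruit SETDB1 there. On the plus strand at chr19:58694396-58724928 it had an E2F1 summit 161 bp upstream of the nearest TSS, a MYC summit 7 bp further along and a Fra-1 summit 40 bp along. Their fold enrichments were 62.6, 7.31 and 17.4. The AP-1 letters of its Fra-1 peak and those of ZNF611 are printed in 30 bases with the match in capitals, since these were the 2 of 5 Fra-1 promoter summits at members that held them, compared with 75 of 148 in other genes (50.7%, 42.7 to 58.6).
ZNF274 (chr19:58695139-58695168, plus strand): tgggagtcctaTGACTCActctgggcgttt
ZNF611 (chr19:53225744-53225773, minus strand): cttactcagttgTGAGTCAgtttcttccct

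The finger array of these genes is largely encoded by the last exon, which was long in members, with a median of 3301 bp against 727.5 bp in other chromosome 19 genes. E2F1 had a peak on the last exon of the canonical transcript of 2 members, ZNF574 and ZNF580 (0.813%, 0.223 to 2.92), where the background was 5.21% of protein-coding genes, compared with 111 of the other genes (8.995%, 7.52 to 10.7). Fra-1 had one at ZNF490 and ZNF805 (0.813%, 0.223 to 2.92), against a background of 1.55% and 1.54% of the other genes. MYC had one at none of the 246 (upper limit 1.54%), where the background was 0.577% and the share of the other genes 1.54%. Both backgrounds lay within the intervals of the members. With the last exon of every annotated transcript, 16 members (6.504%) had an E2F1 peak, so the low count applies to the canonical last exon. The other genes were not counted by that wider definition. Last-exon peaks inside a gene's own promoter window were counted too. The other genes were shorter, with a median length of 13908.5 bp against 25819 bp in members, and the part of this in the last-exon shares was not tested.

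Genes for partners of KRAB repression were mostly bound by E2F1 too. Of 20 genes for TRIM28, SETDB1, HP1 proteins, histone deacetylases, the HUSH complex, DNA methylation and related factors, E2F1 had a promoter peak at 19, MYC at 5 and Fra-1 at 2. TRIM28, the corepressor itself, lies on chromosome 19 near the terminal cluster and had an E2F1 fold enrichment of 35.1 and no MYC or Fra-1 peak, and SETDB1 had 19.6. MYC was at HDAC2, CBX5, UHRF1, DNMT1 and MORC2, Fra-1 at CBX3 and UHRF1, and DAXX was the gene without an E2F1 peak. With 20 genes these counts are read only beside the backgrounds of 61.3%, 17.8% and 13.2%.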

How the data were processed

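ChIP-Seq peak lists of E2F1, MYC and Fra-1 in LM2 cells were analysed. Before deposit, reads were trimmed (Trimmomatic 0.27) and mapped by the authors to masked hg19 using Bowtie 0.12.5. Reads with 1 genomic match and no mismatch in the first 45 bases were retained, duplicates were dropped, and MACS2 2.0.10 called peaks over the input at a q-value below 0.01. The deposited lists give for each peak the pileup signal at the summit, the fold enrichment as a ratio over local background and -log10 p-values and q-values (deposited as -log10). Nothing was renormalised. Genes and start sites were taken from GENCODE release 44 lifted to GRCh37, whose coordinates are those of hg19.

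A peak counted for a promoter when it overlapped the window from 2 kb upstream to 2.5 kb downstream of any TSS by 1 bp or more, and for a gene body when it overlapped the gene span and none of the gene's own windows. With 1 library per factor there were no tests: shares carry 95% Wilson intervals, differences Newcombe intervals and medians order-statistic intervals, all for counting error over genes only. Precision also depends on depth, and Fra-1 had the fewest tags.

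Named genes were the 8 members with the largest promoter fold enrichment per factor, members with all 3 factors, the 5 with most body peaks per factor, the 5 longest without peaks and a short list of known role; other genes, among them the unbound members and those with printed sequences, were named after their values were seen. The members, lists and the comparison were chosen with earlier results of these data known. The CpG classes, 8-base words, list lengths and the clusters grouped for MYC were chosen after seeing these data. Window counting was checked on simulated data, where 1000 of 1000 planted promoter peaks over 1480 genes were found. Python 3.11.15 with pandas 2.3.3, numpy 2.4.6, scipy 1.17.1 and matplotlib 3.10.9 was used. Alternatives for thresholds, windows, start sites, overlap rules and comparison genes are given in the closing section.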

Additional observations from a re-analysis of the deposited data

How the results depend on the processing

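Of 111 recomputed values over 12 results, 85 stayed within the interval of the reported value or within 1.5 times its count, 25 moved and 1 changed direction. With each list reduced to its 4867 strongest peaks, the differences in percentage points became 1.964 for the E2F1 promoter share, -2.91 for the Fra-1 promoter share and -2.75 for the E2F1 body share, and the E2F1 last-exon share 0%. With 1 kb either side of the TSS they were -8.75 (Fra-1 promoter), -17.4 (E2F1 body) and -6.08 (MYC body), and with 1 canonical TSS -7.86 (Fra-1 promoter), -16.6, -7.04 and -6.95 (E2F1, MYC and Fra-1 body). With the whole gene body, promoter included by construction, the E2F1 difference turned to 23.9 and the MYC and Fra-1 ones were -10.8 and -10.8. Against all other protein-coding genes, the MYC promoter difference was -2.43 and the Fra-1 body difference -12.6. With the last exon of every transcript, the E2F1 share was 6.504%. Among genes with a CpG ratio of at least 0.6, an alternative chosen after seeing the data, the promoter differences were 2.62, -21.2 and -15.7 for E2F1, MYC and Fra-1, and below 0.6 they were 57.2, -3.70 and -8.44. The median summit pileup, with the highest pileup taken in place of fold enrichment, was 49 for E2F1, 11 for MYC and 24 for Fra-1. Where no construction explains a shift, the cause was not tested. Members with E2F1 and MYC numbered 29 to 38, and 1 member had all 3 factors in each of the 8 alternatives. The alternative restricted to members with a C2H2 pattern in a protein table was not run. No paired analysis was possible because each factor has 1 library. The count of 4867 MYC peaks limits what a missing MYC peak can show.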

Other observations

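ZNF genes on the other chromosomes were bound by E2F1 almost as often as those of chromosome 19. Of 263 such genes E2F1 had a promoter peak at 213 (81.0%, 75.8 to 85.3), MYC at 47 (17.9%, 13.7 to 22.95) and Fra-1 at 30 (11.4%, 8.11 to 15.8). The E2F1 and MYC shares have intervals that overlap those of the chromosome 19 members, while the Fra-1 interval lies above theirs, which was 0.871 to 4.67%. The median E2F1 fold enrichment was 24.1 (22.6 to 25.3), the E2F1 summit lay 67 bp (59 to 86) from the nearest TSS at the median, and body peaks of E2F1 came to 4.42 per Mb.

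Among the 25 genes of chromosome 19 with other zinc finger symbols, such as ZSCAN, ZIM and ZFP, E2F1 was at 17 (68.0%, 48.4 to 82.8), MYC at 5 and Fra-1 at 1.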
